A study of Homo sapiens with 6 samples.

Results

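The genes described here are 46 genes of mitosis: the kinases that drive entry into division, the proteins of the centromere and kinetochore, the spindle checkpoint, the machinery of anaphase and cytokinesis, the condensins, and a pair of transcription factors of the G2/M programme. They were taken by name from a table of 60623 human genes, and all 46 were found in it. The table holds RNA-seq values for LX2, an established line of human hepatic stellate cells, the cells that lay down scar collagen in injured liver. In 3 libraries the cells had been transfected with an siRNA against SHMT2 (siSHMT2), the mitochondrial serine hydroxymethyltransferase that feeds carbon from serine into the folate cycle. In the other 3 they had received a control siRNA (siNC). Every library was labelled as wild-type LX2 grown in DMEM with 2% fetal bovine serum and collected 36 h after transfection. The labels give 1 siRNA name per group and no siRNA sequence, and they do not say whether the replicates were separate cultures. The p-values below therefore cover only the spread among these libraries, which could be technical in part or in full. Cells without any siRNA were not analysed here.

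In mitosis a cell condenses its chromosomes, attaches each sister chromatid through a kinetochore to the spindle, and holds back anaphase until all are attached. The checkpoint does this by keeping CDC20 from switching on the anaphase-promoting complex, a ubiquitin ligase that marks securin and cyclin B for destruction. Most of the genes involved are transcribed in G2 and M phase and kept silent in resting cells by the DREAM complex, so their summed RNA in a culture is widely used as a read-out of how many cells are dividing. Stellate cells divide little in healthy liver and start to divide when they are activated.

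SHMT2 itself stood at 2.25, 2.10 and 2.42 FPKM (fragments scaled to gene length and to the library's total) in the siSHMT2 libraries, against 40.8, 56.3 and 45.1 FPKM in the siNC libraries. The groups did not overlap, and SHMT2 fell to 4.77% of the siNC mean (log2 difference -3.88, SE 0.132, limma adjusted p = 2.08e-05; exact two-sided permutation p = 0.1, the smallest that 3 against 3 allow). Recovered reads came to between 14722344 and 15010322 per siSHMT2 library and between 15135070 and 15669139 per siNC library. Of 10 stellate markers, 7 averaged at least 1 FPKM, among them VIM, SPARC, TIMP1 and the collagen gene COL1A1 at 190 to 252 FPKM. LRAT was at 0 and ACTA2 and DES stayed below 1 FPKM in every library. The summed level of the stellate markers was 1416 to 1629 FPKM in siSHMT2 and 1828 to 2700 FPKM in siNC. TIMP1 (559 to 724 FPKM in siSHMT2, 632 to 1393 FPKM in siNC) and VIM (473 to 527 and 739 to 930 FPKM) had the highest values in that sum. VIM alone among the 10 markers had groups that did not overlap, so the sum is no shared fall of the markers. None of the 6 hepatocyte and 5 endothelial markers averaged 1 FPKM, with TTR and LYVE1 at 0 throughout. Of 5 leukocyte markers CD14 alone averaged at least 1 FPKM, and CD163 was at 0. Of 4 cholangiocyte markers SOX9 and KRT7 did.

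The mitotic genes were, on balance, lower after the SHMT2 siRNA. Their summed level was 1336, 1297 and 1333 FPKM in the siSHMT2 libraries (1322 ± 21.8, SD, n = 3), against 1639, 1657 and 1650 FPKM in the siNC libraries (1648 ± 8.86, SD, n = 3), or 80.2% of the siNC mean. The 3 siSHMT2 sums lay below all 3 siNC sums. These sums hold for the deposited scaling only and were not rescaled. The FPKM of all genes summed to 337845, 310119 and 349114 in siSHMT2 replicates 1, 2 and 3. In siNC replicates 1, 2 and 3 it was 310940, 389085 and 367639. The siNC totals thus differed far more among themselves than the siNC sums of the mitotic genes. Both the narrow siNC SD and the 80.2% belong to the deposited scaling. The sums also lean on the genes of highest level, UBE2C, MYBL2 and CDC20 (means of 239, 208 and 174 FPKM over the 6 libraries). Of the 46 genes, 43 passed the filter of a mean of at least 1 FPKM over the 6 libraries, and SPC25, PRC1 and NUSAP1 did not. By limma at an adjusted p under 0.05, 17 of the 43 fell and 1, ZWINT, rose. Over all 10865 genes tested, 1070 (9.85%) fell and 659 (6.07%) rose. The median difference of the 43 genes was -0.34 in log2(FPKM + 1), a scale that shrinks the differences of genes with low values, and that of all genes tested was 0.02. Negative differences were seen in 37 of the 43, or 86.0%, against 47.1% of all genes tested. In 23 of the 43 every siSHMT2 library lay below every siNC library, an order found in 18.6% of all genes tested, and in 3 (ZWINT, INCENP and SPC24) every siSHMT2 library lay above, found in 17.9%. The 46 genes were chosen with earlier results of these data known, so these shares describe the list and are no test of it. Among 101 tested genes of 6 further mitotic lists, given below, 12 fell (11.9%) and 1 rose. In a bulk culture, fewer cells in mitosis and less mitotic RNA per cell cannot be told apart.

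**Figure D1:**
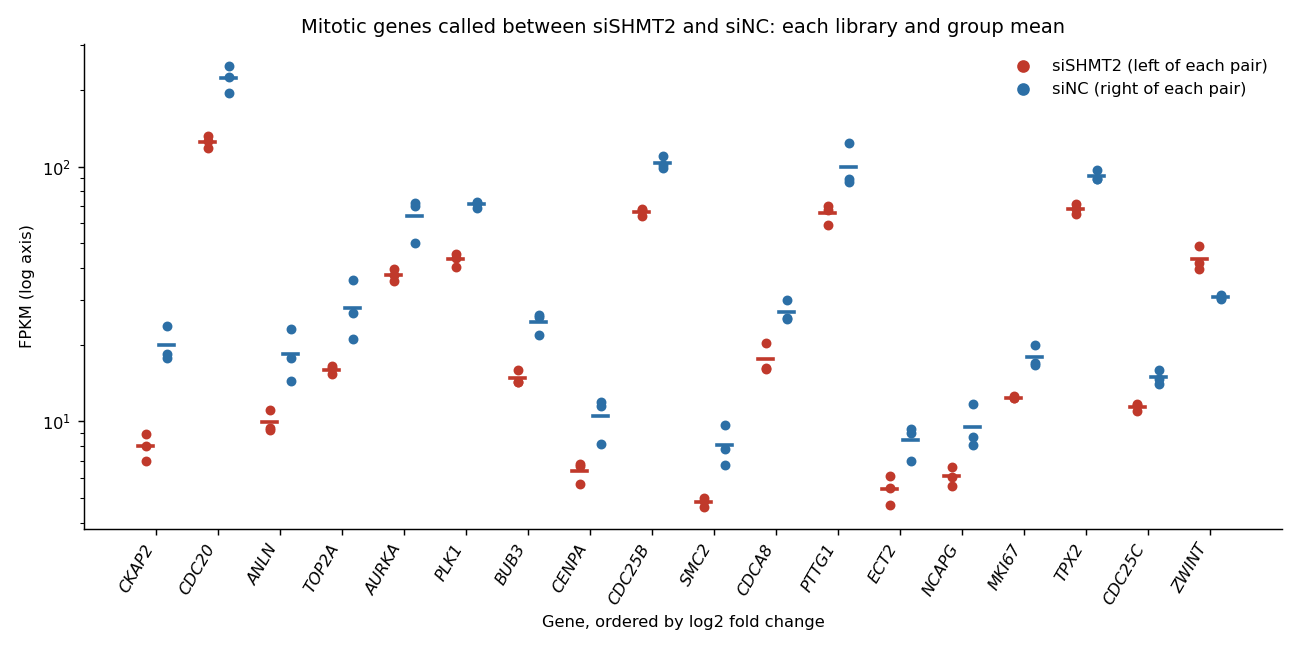
FPKM on a log axis of the 18 mitotic genes that passed the test, with siSHMT2 libraries left of siNC libraries in each gene, 1 point per library and a bar at the mean of 3. In all 18 the groups do not overlap: ZWINT is higher in siSHMT2 and the other 17 are lower, with CKAP2 furthest apart.

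How many of the genes were called depended on single libraries and on the scaling. With 1 siSHMT2 library left out the number that fell was 4 (without replicate 1), 7 (without replicate 2) or 5 (without replicate 3), and with 1 siNC library left out it was 15, 19 and 9 (without replicates 1, 2 and 3). Over all genes tested, leaving out the same libraries moved the count that fell to between 502 and 1124. With values rescaled to TPM, 6 of the 43 fell (13.95%, against 5.71% of all genes), namely PLK1, CDC25B, BUB3, CDC20, PTTG1 and CKAP2. With library sizes taken as plain read sums 8 fell (18.6%, against 7.06%), these and AURKA and MKI67. With limma voom on recovered reads 11 fell (25.6%, against 7.85%), those 8 and ANLN, TOP2A and SMC2. The 3 scalings also moved the split over all genes, to 686 higher and 620 lower (TPM), 796 and 767 (plain sums), and 914 and 853 (voom). Negative differences held in 34 of the 43 under each of these scalings. CKAP2, PLK1, BUB3 and CDC20 were called lower in the main test and in all 14 alternatives, with adjusted p-values up to 0.0126, 0.0348, 0.0427 and 0.0459.

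Individual libraries differed in how the mitotic genes stood. The siNC replicate 1 library had the highest value of the 6 in 25 of the 43 genes, against 5 in siNC replicate 2 and 8 in siNC replicate 3. The siSHMT2 replicate 3 library had the lowest value in 20, against 7 and 6 in siSHMT2 replicates 1 and 2. Measured from the siNC mean, the median difference of the 43 genes was -0.33, -0.26 and -0.47 on the log2(FPKM + 1) scale in siSHMT2 replicates 1, 2 and 3, and 0.18, -0.12 and -0.02 in siNC replicates 1, 2 and 3. All 3 siSHMT2 medians lay below all 3 siNC medians, and siNC replicate 2 came closest to them. The control libraries also varied more among themselves: the median coefficient of variation of the 43 genes was 8.60% in siSHMT2 and 16.4% in siNC, close to 8.92% and 16.2% over all genes tested.

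**Figure D2:**
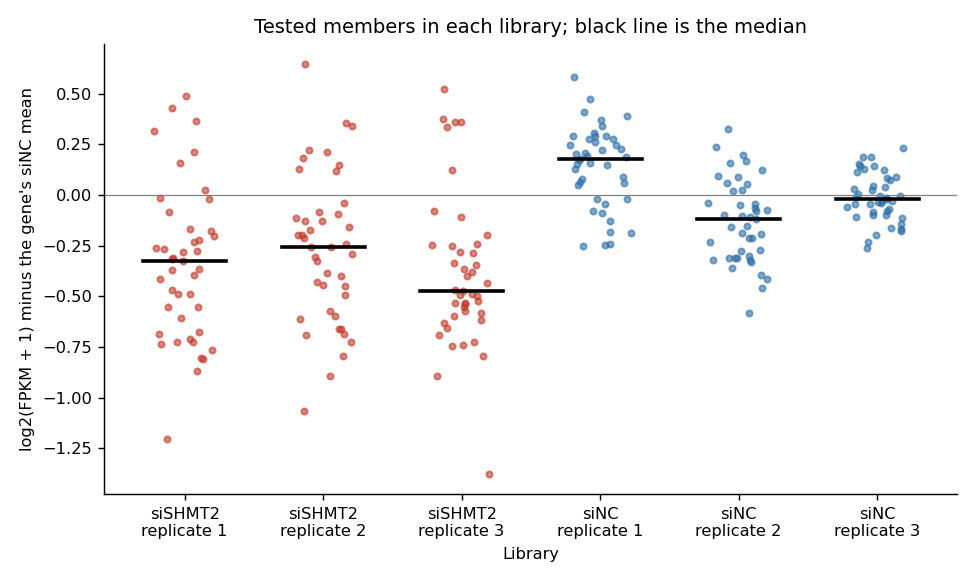
Difference of each library from the siNC mean, in log2(FPKM + 1), for the 43 tested mitotic genes, with siSHMT2 libraries to the left and siNC libraries to the right, 1 point per gene and a bar at each library's median. The siSHMT2 medians lie between -0.47 and -0.26 and the siNC medians between -0.12 and 0.18.

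Promoters of these genes were searched for a pair of sequence elements that G2/M genes are known for. The cell cycle genes homology region (CHR), bound by DREAM and related complexes, is searched here as TTTGAA or its reverse TTCAAA, and as the palindrome TTCGAA. The CCAAT box, bound by NF-Y, is searched as CCAAT or its reverse ATTGG. The window runs from 250 bases before to 50 after a transcription start listed by RefSeq (GRCh38.p14). Promoters were matched for 38 of the 46 genes, 53 promoters in all, because several genes have more than 1 listed start. AURKA, BUB3, TPX2, TTK, BIRC5, UBE2C, KNL1 and FOXM1 had no entry. A CHR match was present in 32 of the 53 promoters (60.4%), against 16.4% of 35116 promoters of 27305 genes. Within 70 bases before the start a match was present in 16 of 53 (30.2%), against 3.29%. A CCAAT match was present in 34 of 53 (64.2%), against 34.6%, and both in 23 (43.4%), against 6.38%. A few promoters that carry a CHR match within 70 bases of the start are shown, each as the 120 bases before the start, 5′ to 3′ on the gene's strand, with CHR and CCAAT matches in capitals. They belong to called genes of different roles, and ZWINT is among them because it moved the other way.
PLK1 (chr16:23678769-23678888, plus strand): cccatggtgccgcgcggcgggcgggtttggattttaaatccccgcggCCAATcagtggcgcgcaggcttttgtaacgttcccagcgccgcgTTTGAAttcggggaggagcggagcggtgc
CDC20 (chr1:43358861-43358980, plus strand): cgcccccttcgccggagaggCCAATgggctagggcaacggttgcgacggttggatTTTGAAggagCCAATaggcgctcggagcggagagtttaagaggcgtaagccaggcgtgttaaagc
CDCA8 (chr1:37692396-37692515, plus strand): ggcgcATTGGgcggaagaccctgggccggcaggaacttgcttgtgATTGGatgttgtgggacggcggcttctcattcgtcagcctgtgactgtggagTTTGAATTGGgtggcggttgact
CENPA (chr2:26785936-26786055, plus strand): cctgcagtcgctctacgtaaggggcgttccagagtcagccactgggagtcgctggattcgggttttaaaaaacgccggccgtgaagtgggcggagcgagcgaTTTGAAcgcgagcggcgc
MKI67 (chr10:128126424-128126543, minus strand): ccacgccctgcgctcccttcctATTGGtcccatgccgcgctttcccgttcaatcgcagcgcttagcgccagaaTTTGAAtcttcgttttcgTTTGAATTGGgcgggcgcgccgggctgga
ANLN (chr7:36389742-36389861, plus strand): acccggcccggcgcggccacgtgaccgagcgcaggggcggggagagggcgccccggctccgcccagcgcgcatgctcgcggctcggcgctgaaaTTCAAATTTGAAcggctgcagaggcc
ZWINT (chr10:56361260-56361379, minus strand): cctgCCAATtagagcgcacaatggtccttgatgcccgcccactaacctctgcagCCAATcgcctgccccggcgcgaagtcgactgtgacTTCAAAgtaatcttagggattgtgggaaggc
In PLK1 the CHR match begins 29 bases before the start and in CDC20 65 bases before. CDCA8 and MKI67 each have a CHR match that shares its last base with an ATTGG, at 23 and 29 bases before the start, and MKI67 has another at 47. The 2 matches of ANLN adjoin, as TTCAAA and TTTGAA at 26 and 20 bases before the start. ZWINT, which rose, has a TTCAAA 31 bases before 1 of its 2 listed starts and 17 bases before the other. Matches were thus found in genes of both directions. By gene, a CHR match was present for 12 of 14 that fell and 13 of 20 that were not called. A gene with more listed starts has more room for a match, and no share by gene is given for all genes. By promoter it was 14 of 23 (60.9%) and 13 of 25 (52%), beside 16.4% of all promoters. Within 70 bases before the start it was 9 of 23 (39.1%) and 4 of 25 (16%), beside 3.29%. Whether these shares differ was not tested. CKAP2, the gene furthest down, had neither a CHR nor a CCAAT match in its window, and nor did CENPE and MYBL2. AURKB, NCAPH, NEK2, PTTG1, SGO2 and SPC24 had a CCAAT match and no CHR match. A match is a string of letters in a window and not a site shown to be bound.

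The counts by role below stand beside 9.85% of all genes tested that fell and 6.07% that rose. Among the kinases and phosphatases that push the cell into mitosis, 4 of 7 fell. All 7 differences were negative (median -0.35), that of NEK2 turning positive with TPM, plain read sums and voom. PLK1 is the Polo-like kinase needed for centrosome maturation, kinetochore attachment and mitotic exit. It had 43.8, 40.5 and 45.6 FPKM in siSHMT2, against 68.9, 72.1 and 72.6 FPKM in siNC. Values were close together within each group and the groups lay far apart, and PLK1 (chromosome 16, 23677656 to 23690367) fell to 60.8% of the siNC mean (log2 difference -0.71, SE 0.104, limma adjusted p = 0.00409). AURKA, the Aurora kinase of the centrosome and spindle poles, had 35.6, 39.5 and 37.7 FPKM in siSHMT2, against 69.98, 49.98 and 71.9 FPKM in siNC. It fell to 58.8% (log2 difference -0.73, SE 0.156, adjusted p = 0.0181), with no overlap, though siNC replicate 2 sat well below the other siNC libraries. AURKB, the Aurora kinase of the chromosomal passenger complex, had 64.0, 60.8 and 68.1 FPKM in siSHMT2, against 60.6, 75.0 and 82.3 FPKM in siNC. Those groups overlapped, because siNC replicate 1 was the lowest of all 6 libraries, and the difference of -0.16 was not called (SE 0.139, adjusted p = 0.480).

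The CDC25 phosphatases remove the inhibitory phosphates from CDK1 and so set off mitotic entry. CDC25B (chromosome 20, 3786772 to 3806121) had 67.6, 64.1 and 68.0 FPKM in siSHMT2, against 102, 99.0 and 109.9 FPKM in siNC. Each siSHMT2 library was lower than each siNC library by a wide margin, and the gene fell to 64.2% (log2 difference -0.63, SE 0.108, adjusted p = 0.00771). CDC25C (chromosome 5, 138285265 to 138338355) had 11.6, 11.7 and 11.01 FPKM in siSHMT2, against 14.0, 15.9 and 14.7 FPKM in siNC, and fell to 76.8% (log2 difference -0.35, SE 0.094, adjusted p = 0.0414). The groups did not overlap, but the gap was small. PLK4, which starts centriole duplication, and NEK2, which separates the centrosomes, had differences of -0.18 and -0.06 and overlapping groups. The call of CDC25B was lost without siSHMT2 replicate 1 (adjusted p = 0.054). That of AURKA was lost without any 1 siSHMT2 library or siNC replicate 3 (0.0569 to 0.087), and that of CDC25C without any 1 library but siNC replicate 1 (0.0542 to 0.168).

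Of the 4 spindle checkpoint genes BUB3 alone passed the test. BUB3 carries BUB1 and BUBR1 to unattached kinetochores and is part of the complex that holds CDC20. It had 14.3, 15.9 and 14.2 FPKM in siSHMT2, against 25.7, 26.2 and 21.8 FPKM in siNC. The groups were well apart, and BUB3 (chromosome 10, 123154402 to 123170467) fell to 60.3% (log2 difference -0.69, SE 0.111, adjusted p = 0.00582). BUB1, the kinase that marks centromeric chromatin for the passenger complex, had 8.58, 9.55 and 7.21 FPKM in siSHMT2, against 13.0, 9.92 and 9.07 FPKM in siNC. The groups of BUB1 met at siSHMT2 replicate 2 and siNC replicate 3, and its difference of -0.30 was not called (adjusted p = 0.238). BUB1B, which encodes BUBR1, and TTK, the MPS1 kinase that starts checkpoint signalling, had differences of -0.27 and -0.41 (adjusted p = 0.124 and 0.184).

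The 4 genes of the chromosomal passenger complex and the spindle did not move together. CDCA8 encodes Borealin, which anchors the complex at the centromere. It had 15.997, 20.3 and 16.2 FPKM in siSHMT2, against 30.1, 25.4 and 25.2 FPKM in siNC. It fell to 65.0%, with no overlap (log2 difference -0.60, SE 0.129, adjusted p = 0.0198). TPX2, which activates Aurora A and nucleates microtubules around chromosomes, had 71.3, 68.2 and 65.3 FPKM in siSHMT2, against 97.5, 89.7 and 89.5 FPKM in siNC. It fell to 74.0% with tight groups (log2 difference -0.43, SE 0.108, adjusted p = 0.034). INCENP, the scaffold of the complex, had 12.5, 11.3 and 11.5 FPKM in siSHMT2, against 10.9, 6.31 and 9.20 FPKM in siNC. All siSHMT2 values of INCENP were the higher ones, but the siNC libraries were spread and the difference of 0.41 was not called (SE 0.173, adjusted p = 0.159), though without siNC replicate 1 it was (0.0458). BIRC5 (survivin) averaged 69.7 ± 5.19 FPKM in siSHMT2 and 58.96 ± 8.99 FPKM in siNC (SD, n = 3 each), with overlap and a difference of 0.25 (adjusted p = 0.291). The call of CDCA8 was lost without siSHMT2 replicate 1 or 3 (adjusted p = 0.102 and 0.0889), and that of TPX2 without any 1 siSHMT2 library or siNC replicate 3 (0.0658 to 0.159).

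At the centromere and kinetochore 1 of 8 tested genes fell (12.5%) and 1 rose, close to the shares over all genes tested (9.85% and 6.07%). CENPA, the histone H3 variant that marks the centromere, had 5.70, 6.65 and 6.78 FPKM in siSHMT2, against 11.97, 8.18 and 11.4 FPKM in siNC, from 178 to 215 reads in siSHMT2 and 231 to 408 reads in siNC. The groups did not overlap, and CENPA (chromosome 2, 26764289 to 26801067) fell to 60.6% (log2 difference -0.63, SE 0.148, adjusted p = 0.026). Its row lies over part of SLC35F6, at 21.1 FPKM on the same strand, and reads in the shared stretch cannot be told apart. ZWINT, which links the KNL1 arm of the kinetochore to the corona proteins that recruit dynein, had 41.7, 48.6 and 39.8 FPKM in siSHMT2, against 30.3, 31.3 and 30.6 FPKM in siNC. Every siSHMT2 value was higher by a wide margin, while the siNC libraries were almost level, and ZWINT (chromosome 10, 56357227 to 56361273) rose to 141% (log2 difference 0.48, SE 0.112, adjusted p = 0.0258). It was also called higher with TPM, plain read sums and voom. Without any 1 siSHMT2 library or siNC replicate 3 its call was lost (adjusted p = 0.066 to 0.112). The call of CENPA was lost without any 1 library but siNC replicate 2 (0.0512 to 0.111).

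The other kinetochore genes did not pass the test. SPC24, a subunit of the NDC80 complex that grips microtubules, had 29.03, 26.9 and 33.7 FPKM in siSHMT2, against 19.3, 25.3 and 25.3 FPKM in siNC. Its groups did not overlap, and the difference of 0.35 (adjusted p = 0.144) was called higher with TPM (0.0303), plain read sums (0.0389) and voom (0.0367). NDC80 and NUF2, partners of SPC24 in that complex, both had a difference of -0.21 and overlapping groups. SPC25, the remaining subunit, was close to silent in the table, with 3 to 5 reads in siSHMT2 and 10 to 29 reads in siNC, and was not tested. KNL1, the scaffold on which checkpoint proteins assemble, differed by -0.24, CENPF of the outer corona by -0.30 and CENPE, the kinesin that carries chromosomes to the metaphase plate, by -0.34 (adjusted p = 0.250, 0.230 and 0.156). CENPF was called lower without siNC replicate 2 (0.0331). Within the NDC80 complex, SPC24 thus lay on the other side of 0 from NDC80 and NUF2, and none of the 3 was called.

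Of the genes that guard cohesion and trigger anaphase, 2 of 6 fell, and all 6 differences were negative (median -0.32), that of SGO2 turning positive with TPM, plain read sums and voom. CDC20, the activator of the anaphase-promoting complex, had 126, 119 and 132 FPKM in siSHMT2, against 194, 249 and 225 FPKM in siNC. No siSHMT2 library came near the siNC range, and CDC20 (chromosome 1, 43358981 to 43363203) fell to 56.4% (log2 difference -0.82, SE 0.136, adjusted p = 0.00693). PTTG1 encodes securin, which inhibits separase until CDC20 brings it to the ligase. It had 70.1, 59.3 and 67.9 FPKM in siSHMT2, against 87.0, 124 and 89.3 FPKM in siNC, and fell to 65.7% (log2 difference -0.58, SE 0.163, adjusted p = 0.0481). The groups of PTTG1 were separate, but siNC replicate 2 stood far above the other controls, and the call was lost without any 1 library but siNC replicate 1 (adjusted p = 0.0509 to 0.1704). UBE2C, the ubiquitin-conjugating enzyme of the same ligase, averaged 216 ± 2.37 FPKM in siSHMT2 and 262.7 ± 18.9 FPKM in siNC (SD, n = 3 each). UBE2C had the highest mean level of the 46 genes, and its groups did not overlap, but the difference of -0.28 was not called (adjusted p = 0.179).

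ESPL1, the separase that cuts cohesin, and SGO1, the shugoshin that shields centromeric cohesin from early removal, had every siSHMT2 value below every siNC value. ESPL1 had 4.46, 4.55 and 4.57 FPKM in siSHMT2, against 5.90, 4.73 and 6.39 FPKM in siNC (log2 difference -0.26, adjusted p = 0.166). SGO1 had 3.43, 3.03 and 3.36 FPKM in siSHMT2, against 5.12, 4.11 and 4.33 FPKM in siNC (log2 difference -0.37, adjusted p = 0.0541). SGO1 thus lay just outside the threshold, as PTTG1 and CDC25C lay just inside it. Without siNC replicate 2 both ESPL1 and SGO1 were called lower (0.0307 and 0.0399). SGO2, the paralogue of SGO1, differed by -0.01.

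Spindle and cytokinesis genes held the furthest difference of the set, with 3 of 6 tested genes lower and all 6 differences negative (median -0.48). CKAP2 is a microtubule-associated protein of the spindle, needed for its stability. It had 8.01, 8.93 and 6.997 FPKM in siSHMT2, against 23.7, 17.7 and 18.4 FPKM in siNC. The highest siSHMT2 value was far under the lowest siNC value, and CKAP2 (chromosome 13, 52455429 to 52476628) fell to 40.1% (log2 difference -1.21, SE 0.139, adjusted p = 0.0015). ANLN, the anillin that organises the contractile ring, had 9.44, 11.1 and 9.26 FPKM in siSHMT2, against 23.1, 14.4 and 17.7 FPKM in siNC. ANLN fell to 53.9% without overlap, with a wide spread in siNC (log2 difference -0.81, SE 0.168, adjusted p = 0.0166). ECT2, the exchange factor that switches on RhoA at the cleavage plane, had 4.67, 6.12 and 5.46 FPKM in siSHMT2, against 8.97, 6.99 and 9.37 FPKM in siNC. It fell to 64.2% (log2 difference -0.55, SE 0.136, adjusted p = 0.0307), the groups lying less than 1 FPKM apart at their closest.

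The other spindle genes tested were not called. HMMR, a spindle-pole and hyaluronan-binding protein, differed by -0.41 with groups that did not overlap (adjusted p = 0.108), and was called lower without siNC replicate 2 (0.0318). ASPM, which focuses spindle poles, and DLGAP5, which stabilises kinetochore fibres, differed by -0.32 and -0.21 with overlap. PRC1, the bundler of the central spindle, and NUSAP1, which ties microtubules to chromosomes, were near 0, with 2 to 13 and 0 to 5 reads in siSHMT2 and 5 to 13 and 2 to 7 reads in siNC. Each of these 2 lies within the table beside another protein-coding row on the same strand, over 29440 bases for PRC1 and 60203 bases for NUSAP1, and the sources used here do not say how reads in such stretches were handled. The call of ANLN was lost without siSHMT2 replicate 1 or 3 (adjusted p = 0.0716 and 0.0681), and that of ECT2 without any 1 library but siNC replicate 2 (0.0534 to 0.129).

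Among genes that shape mitotic chromosomes, 4 of 6 fell and all 6 differences were negative (median -0.52), that of NCAPH turning positive with TPM, plain read sums and voom. TOP2A, the topoisomerase that untangles sister chromatids, had 16.1, 16.5 and 15.3 FPKM in siSHMT2, against 36.0, 21.1 and 26.7 FPKM in siNC. It fell to 57.2%, with even siSHMT2 values and widely spread siNC values (log2 difference -0.74, SE 0.179, adjusted p = 0.0301). MKI67 encodes Ki-67, the proliferation marker that coats mitotic chromosomes, and had 12.6, 12.3 and 12.3 FPKM in siSHMT2, against 16.7, 19.9 and 16.9 FPKM in siNC. It fell to 69.5%, with no overlap (log2 difference -0.49, SE 0.103, adjusted p = 0.0181). SMC2, the core ATPase subunit of both condensins, had 4.62, 4.88 and 5.01 FPKM in siSHMT2, against 9.66, 6.75 and 7.76 FPKM in siNC. It fell to 59.97% (log2 difference -0.62, SE 0.128, adjusted p = 0.0162).

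NCAPG, a HEAT-repeat subunit of condensin I, had 6.06, 6.63 and 5.59 FPKM in siSHMT2, against 11.7, 8.09 and 8.68 FPKM in siNC. The groups were separate, and NCAPG fell to 64.2% (log2 difference -0.55, SE 0.141, adjusted p = 0.0361). SMC4, the partner of SMC2, had 1.06, 1.53 and 0.968 FPKM in siSHMT2, against 3.53, 1.42 and 1.52 FPKM in siNC. The high siNC value of SMC4 was that of replicate 1 alone, and the difference of -0.48 was not called (SE 0.244, adjusted p = 0.241). On the opposite strand SMC4 shares 35681 bases with the row AC079594.2, and shorter stretches with IFT80 and TRIM59. What these overlaps do to its values was not tested. NCAPH, the kleisin of condensin I, differed by -0.04 with overlap. Of the 4 condensin subunits, 2 passed the main test. The calls of MKI67 and SMC2 were lost without any 1 siSHMT2 library (adjusted p = 0.0765 to 0.0859 and 0.0551 to 0.075). Those of TOP2A and NCAPG were lost without any 1 siSHMT2 library or siNC replicate 3 (0.0734 to 0.103 and 0.0638 to 0.128).

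**Figure D3:**
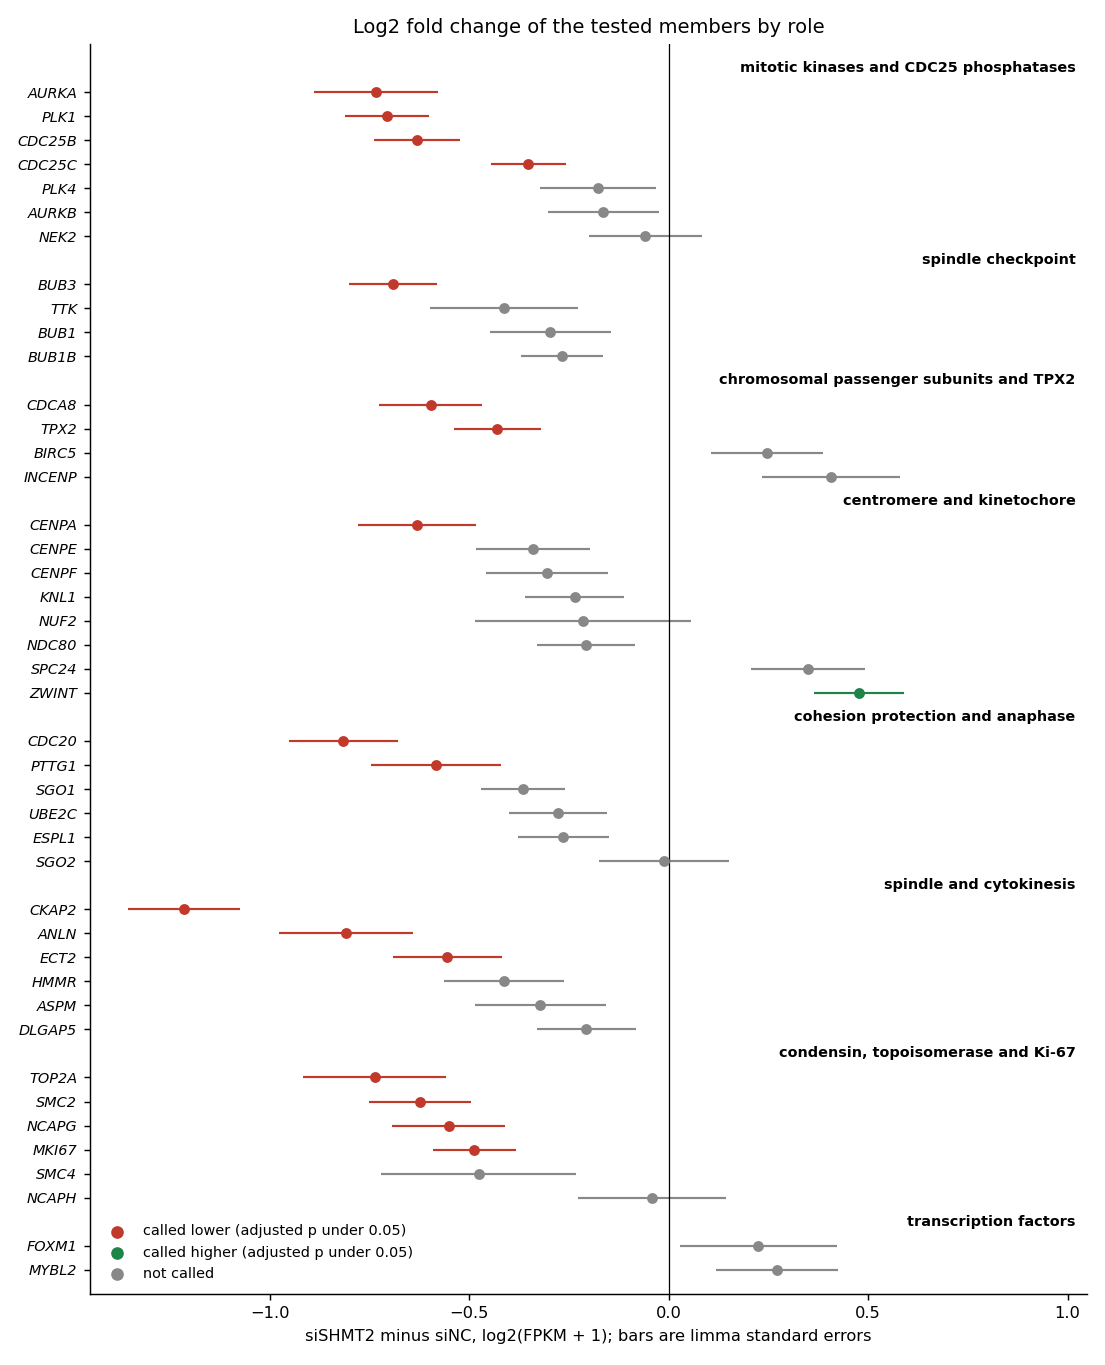
Difference of siSHMT2 minus siNC in log2(FPKM + 1), with its standard error, for the 43 tested mitotic genes grouped by role. Red marks genes called lower, green the gene called higher (ZWINT) and grey those not called; differences run from -1.21 in CKAP2 to 0.48 in ZWINT.

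The transcription factors that switch on the G2/M genes were on the other side of 0. FOXM1, the forkhead factor recruited to CHR promoters, had 23.3, 25.7 and 21.9 FPKM in siSHMT2, against 26.9, 14.8 and 20.1 FPKM in siNC. The siSHMT2 values lay inside the siNC range, and the difference of 0.22 was not called (SE 0.197, adjusted p = 0.493). MYBL2 encodes B-MYB, which joins the MuvB core to activate the same promoters, and had 241, 203 and 237 FPKM in siSHMT2, against 172, 221 and 174 FPKM in siNC. A single siNC library, replicate 2, reached into the siSHMT2 range of MYBL2 (log2 difference 0.27, SE 0.152, adjusted p = 0.280). Neither was called in limma or in voom, and neither was at an unadjusted p under 0.05 in limma. With array weights MYBL2 was called higher (adjusted p = 0.0121). That setting called 26 of the 43 genes lower and 3 higher, and 18.2% of all genes tested lower. AURKB, TTK and UBE2C, not called in the main test, were among those lower. FOXM1 lies over RHNO1, at 16.8 FPKM on the opposite strand, and the sources used here do not say whether counting used strand.

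Split by level, the 22 genes of higher mean level (13.2 to 239 FPKM) held 13 of the 17 that fell and the 1 that rose, with a median log2 difference of -0.46, and the 21 of lower level (1.67 to 11.02 FPKM) held 4 that fell, with a median of -0.30. Negative differences were found in 17 of the 22 and in 20 of the 21. The log2(FPKM + 1) scale compresses the differences of genes with low values, so the medians are not comparable as folds. Genes whose profile over the 6 libraries was most like the mean profile of the 43 genes, among 10668 tested candidates, were CROT (Pearson r = 0.9997), DCUN1D4 (0.998) and SRSF2 (0.998), given as a description over 6 points that fall into 2 groups.

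Other mitotic genes, in 6 further lists, were compared with the same fit. Of 101 tested genes in these lists 12 fell (11.9%, beside 9.85% of all genes) and 1 rose, with 69 negative differences (52 with TPM, 57 with plain read sums, 56 with voom) and a median of -0.09. That share lay near the background. Among the kinesins 4 of 10 fell, all 10 differences were negative (8 with TPM or voom, 9 with plain read sums) and the median was -0.34. KIF2C, the kinesin that depolymerises microtubules at the kinetochore, had 17.7, 18.0 and 18.6 FPKM in siSHMT2, against 43.9, 46.8 and 42.4 FPKM in siNC (40.8%, log2 difference -1.25, adjusted p = 0.000312). KIF23, the central spindle kinesin of cytokinesis, fell to 46.9%, KIF18B to 64.1% and KIF20A to 63.8%, all without overlap between the groups. The call of KIF18B was lost with TPM (adjusted p = 0.0598). That of KIF20A was lost with TPM, plain read sums, voom and no filter (0.0708 to 0.147), and without any 1 siSHMT2 library or siNC replicate 3 (0.0676 to 0.125). Of the mitotic cyclins and CDK1 regulators 2 of 10 fell and all 10 differences were negative (8 with TPM, 9 with plain read sums or voom; median -0.26). These were CCNB1, cyclin B1, at 66.5% (log2 difference -0.58, adjusted p = 0.0169), and CKS2, a CDK-binding subunit, at 70.8% (-0.49, adjusted p = 0.0467). Leaving out any 1 siSHMT2 library or siNC replicate 3 ended both calls (0.0503 to 0.0952 for CCNB1 and up to 0.194 for CKS2), and for CKS2 siNC replicate 2 did so as well (0.0643 at the lowest). TPM ended both calls (0.0836 and 0.0797), and plain read sums and no filter ended that of CKS2 (0.0526 and 0.113).

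The checkpoint gene MAD2L1, which encodes the MAD2 protein that captures CDC20, had the furthest difference of the 101. It had 3.60, 3.73 and 3.79 FPKM in siSHMT2, against 16.9, 11.9 and 13.8 FPKM in siNC, or 26.1% of the siNC mean (log2 difference -1.68, SE 0.130, adjusted p = 0.000312). Every siSHMT2 library lay far below every siNC library. In its list of 29 tested centromere, kinetochore and checkpoint genes, HJURP, the chaperone that loads CENPA, also fell, to 56.3% (log2 difference -0.77, adjusted p = 0.00315), while the median of the list was -0.01. Of 16 anaphase-promoting complex genes, the subunits CDC23 (59.2%, adjusted p = 0.00844) and CDC27 (66.4%, adjusted p = 0.0163) fell and ANAPC13 rose to 132% (adjusted p = 0.0297). ARPP19, which inhibits the phosphatase PP2A-B55 at mitotic entry, fell to 38.2% (log2 difference -1.28, adjusted p = 0.000603), and HAUS1 of the augmin complex to 67.9% (adjusted p = 0.024), among 21 spindle assembly and entry genes with a median of -0.09. Leaving out siSHMT2 replicate 1 or 3 ended the call of CDC27 (adjusted p = 0.0735 to 0.0843), and so it was for ANAPC13 and HAUS1 on leaving out any 1 siSHMT2 library or siNC replicate 3 (0.0755 to 0.144 and 0.0704 to 0.105). With TPM the calls of CDC23 (0.0561), CDC27 (0.123) and HAUS1 (0.137) were lost, with plain read sums those of CDC27 (0.0667) and HAUS1 (0.0844), and with voom and no filter that of HAUS1 (0.086 and 0.0667). Of 15 cohesin and other condensin genes none was called by limma; 3 were lower and 1 higher at an unadjusted p under 0.05, and voom called 1 higher.

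**Figure D4:**
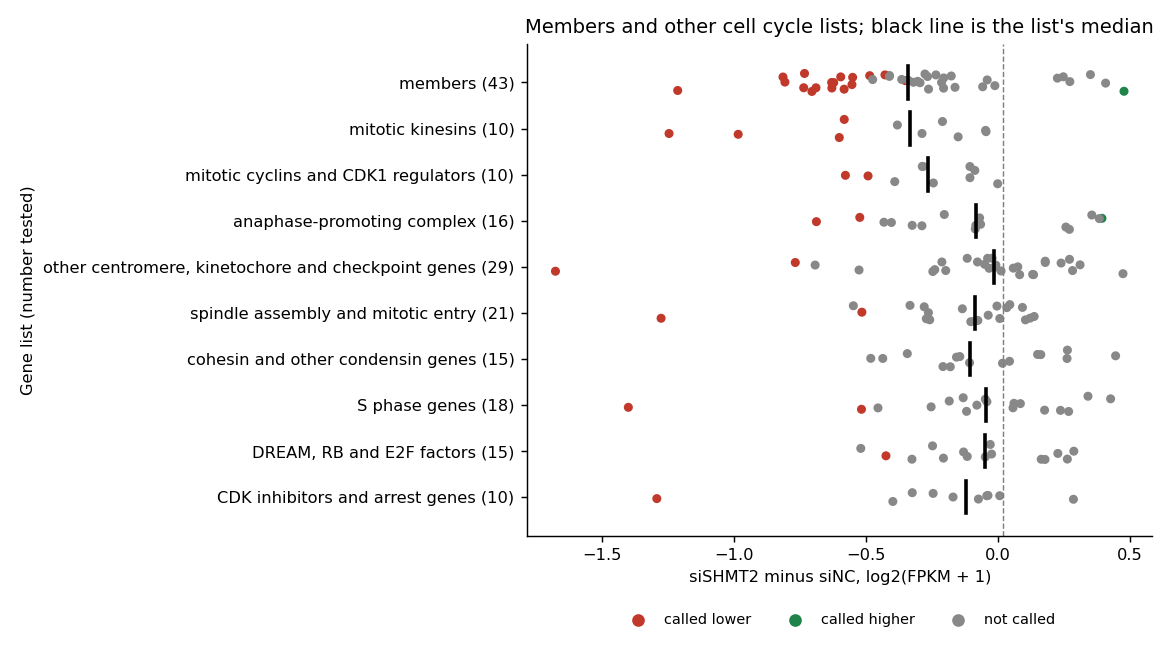
Differences of siSHMT2 minus siNC in log2(FPKM + 1) for the 43 tested mitotic genes (labelled members) and for the other cell cycle lists, 1 point per gene, with a black line at each list's median and a dashed line at the median of all genes tested (0.02). The medians of the members, the kinesins and the cyclins lie furthest to the left, at -0.34, -0.34 and -0.26.

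The 3′ UTRs were searched for GACTTTA and ACTTTAA, a pair of 7-base words that earlier work picked on these same fold changes because genes holding them were lower in siSHMT2. Their link to the fold change is thus no independent result, and what is shown is where the mitotic genes stand. The longest 3′ UTR of a protein-coding transcript in GENCODE release 29 (GRCh38) was used. A word was present in 11 of the 43 tested mitotic genes (25.6%) and in 2309 of 9385 searched genes (24.6%). The median 3′ UTR length was 781 bases in the 43 and 1330 bases in all searched genes, and a longer sequence has more room for a word. It was 1160 bases in the mitotic genes that fell and 494 bases in those not called. In all searched genes that fell it was 1950 bases. The shares and medians given here were not adjusted for length. Of the 17 that fell, 7 held a word (41.2%), against 553 of the 961 searched genes that fell (57.5%). These were CDC25B, BUB3, CENPA, ANLN, CKAP2, TOP2A and SMC2. The median log2 difference was -0.63 in the 11 with a word and -0.29 in the 32 without, beside -0.13 and 0.06 in all searched genes with and without. PLK1, AURKA, CDC25C, CDCA8, TPX2, PTTG1, CDC20, ECT2, MKI67 and NCAPG fell and hold neither word. A few of the matches are shown, as 30 bases of the transcript strand with the word or overlapping words in capitals.
CKAP2: ctaatttttttcACTTTAAcaaaaacataa
SMC2: ttggtctctacGACTTTAAtgtttttgttt
CDC25B: cttggtctgtttGACTTTAcgcccatctca
CENPA: gactccaaggttGACTTTAgtttgtgagtt
The first is ACTTTAA in CKAP2 (chromosome 13), the gene furthest down. The second, in SMC2 (chromosome 9), holds both words overlapped as GACTTTAA, and CDC25B (chromosome 20) and CENPA (chromosome 2) hold GACTTTA.

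Some mitotic genes share their place in the genome with others. Of the 46, 14 overlap another protein-coding row of the table, 5 of them among the genes that fell (ANLN, CDC25C, CENPA, NCAPG and PLK1). A row on the same strand overlaps 4 of them: BUB1B with PAK6, CENPA with SLC35F6, and NUSAP1 and PRC1 with the rows described above. The part of these overlaps in the values was not tested.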

How the data were processed

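The authors deposited 1 table of FPKM values for 60623 genes, with gene lengths and coordinates. The submitters' processing notes name HISAT2 2.0.5, featureCounts 1.5.0-p3 and, as the build, hg18. The coordinates match GRCh38 instead (99.9% of 58516 gene identifiers shared with GENCODE release 29 overlapped), and are given so. Per the labels' protocols, RNA was extracted with Trizol and libraries were made with a SMARTer mRNA kit. The sources used here do not say whether counting used strand.

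Multiplied by gene length, 100% of FPKM values were whole multiples of 1 read's worth (within 0.02 of a read), which gave back the reads. The library totals used for scaling were 1.05 to 1.13 times the summed reads in siSHMT2 and 0.957 to 1.12 times in siNC. The lowest factor, 0.957, was that of siNC replicate 2. That library also had the fewest genes with a read, 18723, against 20559 to 21136 in the other libraries. Because the deposited unit is FPKM, the main test was limma 3.58.1 (R 4.3.3) on log2(FPKM + 1), siSHMT2 against siNC, 3 libraries each, over 10865 genes with a mean of at least 1 FPKM, with a variance trend and Benjamini-Hochberg adjustment over all of them at 0.05. SEs are limma's. Limma voom on recovered reads called 914 genes higher and 853 lower. The fit was checked on simulated reads, in 3 draws that each changed 200 of 10865 genes and gave both groups the same spread. It called 20.4% of the genes changed 1.5-fold, 69.2% of those changed 2-fold and 94.4% of those changed 4-fold. Of unchanged genes it called 0.0625%. Most changes of 1.5-fold were thus missed there. In these data 15.9% of the genes tested were called, and the siNC libraries varied more than the siSHMT2 libraries. The simulated shares therefore need not hold here. A gene not called here may still differ.

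Groups and replicate numbers came from the sample titles. Alternatives covered pseudocount, filter, scaling, array weights, a replicate block, voom and leaving out each library. The members, the lists and the motifs were chosen with earlier results of these data known. Values in every library are given for each member called, for PLK1, AURKA, AURKB, BUB1, BUB3, CDC20, CENPA, TOP2A, MKI67, FOXM1 and MYBL2 whether called or not, and for a few members beside them (INCENP, SPC24, ESPL1, SGO1 and SMC4, picked after their values were seen). Of each other list up to 4 tested genes with the smallest adjusted p could be named, and the 3 genes outside all lists with the most similar profile. A marker of the stellate list is not reported here. Promoter sequences are from RefSeq (GRCh38.p14).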

Additional observations from a re-analysis of the deposited data

How the results depend on the processing

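SHMT2 kept its direction and its call under all 14 alternatives (log2 difference -4.32 to -3.75), and the median difference of the mitotic genes stayed between -0.42 and -0.24. The 17 mitotic genes that fell became 6 with TPM, 26 with array weights, 7 with no filter, 8 with plain read sums and 11 with voom, and 4 to 19 with 1 library left out. The 1 that rose became 2 with TPM, 3 with array weights, 2 with plain read sums and 2 with voom, and 0 to 2 with 1 library left out. With no filter limma called 0 higher, 2 being higher at an unadjusted p under 0.05. Over all genes, the 659 that rose became 1827 with array weights, 333 with no filter and 228 to 731 with 1 library left out. The 1070 that fell became 620 with TPM, 1976 with array weights, 618 at a minimum of 5 FPKM, 603 with no filter and 502 to 1124 with 1 library left out. The median over all genes was 0.11 with TPM and 0.10 with voom, and the mitotic genes then lay -0.40 and -0.44 from it (-0.36 in the main test). The cause of these changes was not tested. No called mitotic gene changed direction in any alternative. Uncalled genes crossed 0 in 1 to 6 alternatives each (SGO2 6, NCAPH 5, NEK2 5, NUF2 1 and PLK4 1). Over single mitotic genes and alternatives, 20 values gained a call and 97 lost one; over the other genes named, 2 gained and 77 lost one.

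Whether replicate numbers pair the samples is not known. The deviations of same-numbered libraries from their group means correlated at -0.02, -0.35 and 0.24 across genes. Those of libraries with different numbers correlated at -0.483 to 0.496. Deviations within a group depend on each other, so these values cannot decide on pairing. A replicate block gave 9 mitotic genes lower and 0 higher (3 higher at an unadjusted p under 0.05), and 696 genes lower and 374 higher over all genes.

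SPC25, PRC1 and NUSAP1 lay below the filter. With no filter they were not called (adjusted p = 0.195, 0.635 and 0.626).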

Other observations

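Genes of the neighbouring cell cycle phases were compared with the same fit. The share that fell in each of the 3 lists below lay near the 9.85% of all genes tested. Of 18 tested S phase genes 2 fell (11.1%) and the median log2 difference was -0.05. RRM2, the small subunit of ribonucleotide reductase, had 6.09, 6.17 and 5.96 FPKM in siSHMT2, against 18.1, 17.8 and 17.1 FPKM in siNC (34.3%, log2 difference -1.40, adjusted p = 0.000151). CDC6, which loads the replicative helicase, fell to 67.3% (log2 difference -0.52, adjusted p = 0.0217), a call lost with TPM, plain read sums and no filter (0.064 to 0.119) and without siSHMT2 replicate 1 or 3 (0.0936 to 0.108). The CDK inhibitors and arrest genes held 1 call in 10 tested (10%). CDKN1A, which encodes the CDK inhibitor p21, had 14.7, 11.2 and 13.5 FPKM in siSHMT2, against 28.6, 33.0 and 39.6 FPKM in siNC, and fell to 38.9% (log2 difference -1.29, adjusted p = 0.00156). Of 15 tested DREAM, RB and E2F factors 1 fell (6.67%), and the median was -0.05. It was LIN54, which fell to 67.3% (log2 difference -0.43, adjusted p = 0.0207). The call of LIN54 was lost with TPM, plain read sums and voom, and on leaving out any 1 siSHMT2 library or siNC replicate 3 (0.0557 to 0.0934).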
